A study of Mus musculus with 4 samples.

Results

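Expression of 10 genes that build or process the basement membrane was followed in F9 cells after knockdown of Phf19: the collagen IV chain genes Col4a1 and Col4a2, the laminin chain genes Lama1, Lamb1, Lamb2 and Lamc1, the nidogen gene Nid1, the perlecan gene Hspg2, the matricellular gene Sparc and the collagen chaperone gene Serpinh1. They were taken by symbol: every probe set that GEO's platform annotation pairs with 1 of these names alone was kept. All 10 genes were found, with 21 of the 45037 probe sets tested and 10 of the 18193 genes. F9 is a line of mouse embryonal carcinoma, the stem cell of teratocarcinoma. The shPhf19 group (2 arrays) carried a lentiviral pLKO.1 construct with a short hairpin RNA against Phf19, which encodes a Polycomb-like partner of Polycomb repressive complex 2, and the shVector group (2 arrays) carried the same vector as a control. Both groups were infected and then selected with puromycin, so the controls share the vector and the drug. The labels name biological replicates and the series' design text names 2 cell lines per group. Nothing used here gives the hairpin sequence or whether each replicate was infected separately. The p-values therefore speak for the spread among these 4 arrays, which may be technical.

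A basement membrane is a sheet of extracellular matrix in which a collagen IV network and a laminin network are joined by nidogen and perlecan. In the early mouse embryo the parietal endoderm lays down a very thick one, Reichert's membrane. F9 cells driven to parietal endoderm with retinoic acid and cyclic AMP secrete large amounts of collagen IV and laminin, and these products are classic markers of that change. None of the 4 arrays here comes from cells said to have been given either agent.

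The members moved in both directions. The genes of both collagen IV chains and of the laminin beta chain Lamb1 rose in shPhf19 cells, Col4a1 by 2.06-fold, Col4a2 by 2.04-fold and Lamb1 by 1.88-fold. Nid1 fell by 1.42-fold. By the brightest probe set of each gene, 3 of the 10 genes rose, against 1.15% of all genes, 1 fell, against 0.863% of all genes, and 6 did not pass. The median change over the 10 was -0.03 on the log2 scale, and over all genes it was -0.0028. Over all 21 probe sets, 7 passed, against 1.41% of all probe sets: 5 rose (0.83% of all probe sets did) and 2 fell (0.582% did). Without the dimmest 50% of probe sets, which kept 18 of the 21, limma called 796 of the 22519 tested, a larger share. An unadjusted p under 0.05 was found for 14 of the 21, against 12.7% of all probe sets. In 16 of the 21 the arrays of the groups did not overlap, which held for 40.5% of all probe sets. A rise or fall here means a limma adjusted p under 0.05, adjusted by Benjamini-Hochberg over the 45037 probe sets.

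**Figure D1:**
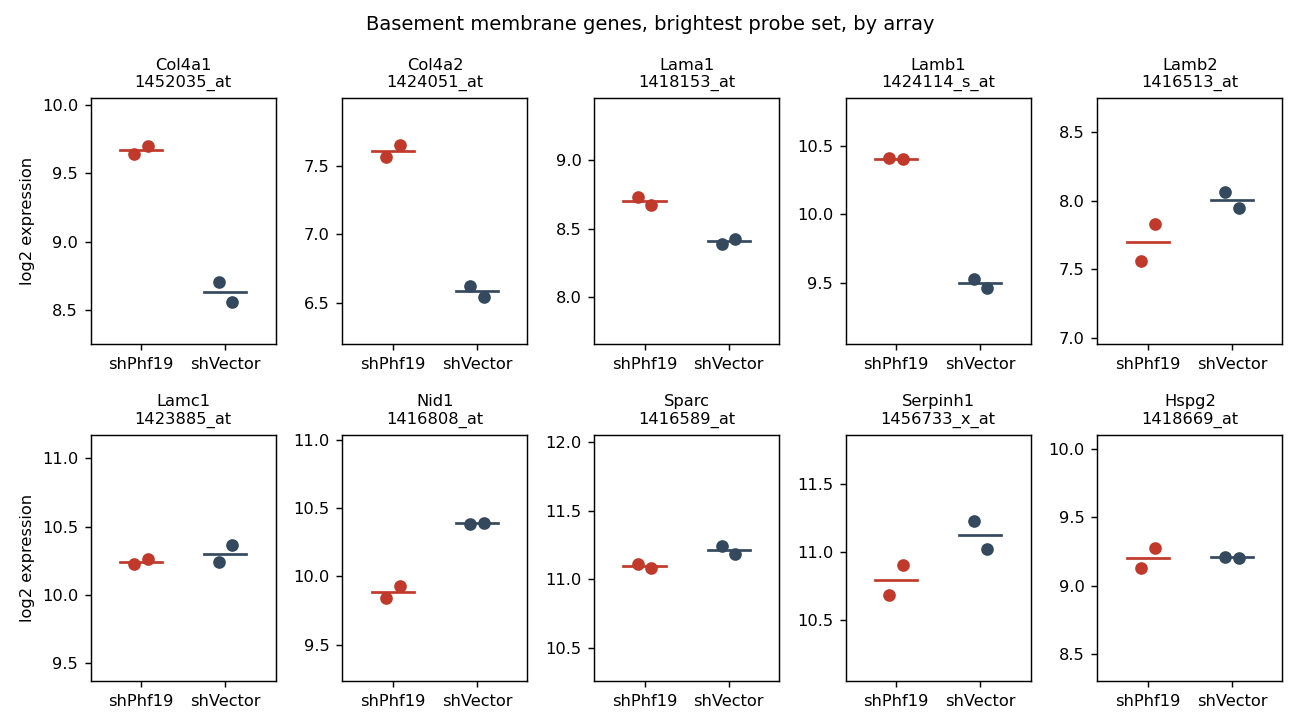
Log2 expression (y axis) of the brightest probe set of each of the 10 genes in the 2 shPhf19 arrays and the 2 shVector arrays. Points are arrays, bars are group means, and every panel spans the same height on the log2 scale. Both shPhf19 arrays lie above both shVector arrays for Col4a1, Col4a2, Lama1 and Lamb1 and below them for Lamb2, Nid1, Sparc and Serpinh1.

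The knockdown itself was read by 1 of 2 probe sets. Probe set 1427920_at of Phf19 was at 5.08 and 5.17 in shPhf19 cells, against 6.07 and 6.14 in shVector cells on the log2 scale (change -0.98 ± 0.10 SE, limma adjusted p = 0.0108), whereas 1431857_at was at 6.05 and 6.26 in shPhf19, against 6.32 and 6.11 in shVector (adjusted p = 0.928). Array medians lay between 5.75 and 5.77. RNA integrity, read as the log2 difference of 3' and 5' beta-actin signal, gave 0.922 and 1.03 in shPhf19 arrays, against 1.16 and 0.834 in shVector arrays. With any 1 of the 4 arrays left out, whichever it was, limma called 0 of the 45037 probe sets, with 2539 to 6942 at an unadjusted p under 0.05. Every call below is therefore lost without any single array, and each such fit takes its spread from 1 group alone.

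Col4a1 and Col4a2 encode the alpha chains that assemble into the collagen IV trimer found in nearly all basement membranes. The genes lie head to head. In RefSeq (GRCm38.p6) their annotated starts on chromosome 8 are 21 bases apart. That of Col4a1 is at 11312826 on the minus strand and that of Col4a2 at 11312805 on the plus strand, so the annotated 5′ ends overlap. The windows from 250 bases before to 50 bases after each start share 78 bases at chr8:11312777-11312854. Both windows are shown 5′ to 3′ because both genes rose. The capitals mark the shared stretch, which the opposite strands give as reverse complements. Col4a1 covers chr8:11312777-11313076 on the minus strand and Col4a2 covers chr8:11312555-11312854 on the plus strand.
Col4a1: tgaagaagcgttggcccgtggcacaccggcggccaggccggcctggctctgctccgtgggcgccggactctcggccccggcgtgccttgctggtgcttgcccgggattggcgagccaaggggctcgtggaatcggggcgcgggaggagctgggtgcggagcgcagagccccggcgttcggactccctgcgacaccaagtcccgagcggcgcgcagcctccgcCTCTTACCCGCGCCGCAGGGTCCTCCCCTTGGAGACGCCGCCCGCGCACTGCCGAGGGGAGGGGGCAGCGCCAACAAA
Col4a2: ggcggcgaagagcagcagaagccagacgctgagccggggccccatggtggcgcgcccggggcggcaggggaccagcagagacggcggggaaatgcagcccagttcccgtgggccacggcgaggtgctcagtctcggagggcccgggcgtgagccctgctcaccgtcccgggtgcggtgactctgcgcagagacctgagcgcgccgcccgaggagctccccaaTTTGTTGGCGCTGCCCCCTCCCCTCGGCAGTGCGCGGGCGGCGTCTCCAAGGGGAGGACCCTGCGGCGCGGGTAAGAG

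Probe set 1452035_at of Col4a1 gave 9.64 and 9.70 in shPhf19 cells, against 8.70 and 8.56 in shVector cells on the log2 scale. Both shPhf19 arrays were higher, and replicates differed far less than the groups did. The change was 1.04 ± 0.08 SE (95% interval 0.84 to 1.24, limma adjusted p = 0.00775). The second Col4a1 probe set, 1426348_at, gave 7.32 and 7.13 in shPhf19, against 6.55 and 6.59 in shVector. It rose by a smaller amount, 0.66 ± 0.10 SE (adjusted p = 0.0387), and did not pass without an intensity trend in the variance (adjusted p = 0.0563). Both Col4a1 probe sets carry the same source accession in the annotation, so they are not independent measurements of the gene.

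Col4a2 has the single probe set 1424051_at, at 7.57 and 7.65 in shPhf19 cells, against 6.62 and 6.54 in shVector cells. It rose by 1.03 ± 0.09 SE (95% interval 0.81 to 1.24, limma adjusted p = 0.00863). The groups were well apart, as for Col4a1. The log2 ratio of Col4a1 to Col4a2 signal within each array was taken by the brightest probe set of each gene. It hardly moved, at 2.08 and 2.05 in shPhf19, against 2.08 and 2.02 in shVector. The ratio differed by 0.01 between the groups, and its arrays overlapped (exact permutation test, two-sided, p = 1.0). With 2 against 2 arrays this exact permutation test cannot go below p = 0.333, so it cannot show that the ratio is fixed. The second Col4a1 probe set, 1426348_at, rose by 0.66, less than the 1.03 of Col4a2. The nearly constant ratio therefore holds for 1452035_at only.

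The other 4 collagen IV chain genes, Col4a3 to Col4a6, encode the chains of more restricted basement membranes such as that of the glomerulus. In limma 0 of the 4 passed, 0 of them at an unadjusted p under 0.05, with changes from -0.20 (Col4a4) to 0.05 (Col4a6) and the smallest limma adjusted p at 0.443. Their representative probe sets lay between 3.55 and 4.95 on every array, below the array median, and the table has no detection calls, so these values may be background.

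The laminins are trimers of an alpha, a beta and a gamma chain, and the trimer of the earliest embryonic basement membranes joins the products of Lama1, Lamb1 and Lamc1. Lamb1 was the laminin gene that passed the test. Its window from RefSeq (GRCm38.p6), chr12:31265043-31265342 on the plus strand, is shown with that of Nid1, the member that fell, at chr13:13437352-13437651 on the plus strand. The capitals mark GC boxes (GGGCGG or its reverse complement CCGCCC), a motif of Sp1-family factors.
Lamb1: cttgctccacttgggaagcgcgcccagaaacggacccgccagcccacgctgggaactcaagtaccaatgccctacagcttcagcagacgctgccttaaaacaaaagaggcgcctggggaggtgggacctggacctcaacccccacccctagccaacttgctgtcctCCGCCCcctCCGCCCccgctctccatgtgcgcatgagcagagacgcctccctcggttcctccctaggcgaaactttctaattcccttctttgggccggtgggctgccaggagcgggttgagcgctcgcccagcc
Nid1: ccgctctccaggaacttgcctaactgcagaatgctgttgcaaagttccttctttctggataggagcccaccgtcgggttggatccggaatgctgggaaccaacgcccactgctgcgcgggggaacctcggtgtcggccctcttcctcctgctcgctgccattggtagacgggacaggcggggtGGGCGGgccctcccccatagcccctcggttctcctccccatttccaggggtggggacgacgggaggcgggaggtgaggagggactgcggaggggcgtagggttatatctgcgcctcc

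Windows were listed for 8 of the 10 members. A GC box was found in 6 of them, with 2 matches in Lamb1, 1 in Nid1, 1 in Col4a1, 3 in Col4a2, 5 in Hspg2 and 1 in Serpinh1, and in 35.7% of the 32851 windows listed. The Col4a1 match lies in the stretch shared with Col4a2, so this 1 site is counted for both genes. The 6 windows with a match hold 62.3% to 74.0% G and C bases, against 44.0% for Lamb2 and 55.3% for Sparc. The letters CCAAT, on either strand, occurred once each in the windows of Col4a1, Col4a2, Lamb1 and Nid1 and in 37.4% of all windows. TATAAA (13.6% of all windows), AGATAA, a core of GATA factor sites (11.2%), and AACAAT, a core of SOX factor sites (10.7%), were searched on both strands and occurred in 0 of the 8 windows. Such matches are letters in a window and were not tied to the changes.

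Probe set 1424114_s_at of Lamb1 gave 10.41 and 10.40 in shPhf19 cells, against 9.53 and 9.46 in shVector cells, a rise of 0.91 ± 0.07 SE (95% interval 0.75 to 1.07, limma adjusted p = 0.00693). Probe set 1424113_at gave 8.21 and 8.16 in shPhf19, against 7.17 and 7.10 in shVector, a rise of 1.05 ± 0.08 SE (adjusted p = 0.00782). The groups were far apart on both. The other probe sets were dim and did not pass: 1451241_at was at 5.96 and 5.77 in shPhf19, against 5.51 and 5.44 in shVector (change 0.38 ± 0.11 SE, adjusted p = 0.188). The dimmest, 1446180_at, was at 4.73 and 4.53 in shPhf19, against 4.40 and 4.26 in shVector (0.30 ± 0.11 SE, adjusted p = 0.335). On all 4 Lamb1 probe sets both shPhf19 arrays were above both shVector arrays. In the annotation 3 of the 4, all but 1446180_at, share a source accession.

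Lama1, the alpha chain gene of the same trimer, was at 8.73 and 8.68 in shPhf19 cells, against 8.38 and 8.43 in shVector cells. The arrays did not overlap, but the change of 0.30 ± 0.08 SE did not pass after adjustment (95% interval 0.12 to 0.48, unadjusted p = 0.00672, limma adjusted p = 0.16). Lamc1, the gamma chain gene, was at 10.23 and 10.26 in shPhf19, against 10.24 and 10.36 in shVector by 1423885_at, and these arrays overlapped. Its change of -0.06 ± 0.07 SE has an interval from -0.23 to 0.11, which leaves out a rise of the size seen for Lamb1 (adjusted p = 0.835). The second Lamc1 probe set, 1423886_at, was at 7.67 and 7.46 in shPhf19, against 7.92 and 7.69 in shVector (change -0.24 ± 0.12 SE, adjusted p = 0.493).

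Lamb2, the beta chain gene of laminins at neuromuscular junctions and in the glomerulus, was at 7.56 and 7.83 in shPhf19 cells, against 8.06 and 7.95 in shVector cells. Both shPhf19 arrays were lower, but the change of -0.31 ± 0.11 SE did not pass (95% interval -0.58 to -0.04, limma adjusted p = 0.324). It was -0.17 without shPhf19 replicate 1 and -0.44 without shPhf19 replicate 2. Within each array the log2 ratio of Lamb1 to Lamb2 signal was 2.85 and 2.57 in shPhf19, against 1.47 and 1.51 in shVector, a difference of 1.22. The ratio of Lamb1 to Lamc1 signal was 0.18 and 0.14 in shPhf19, against -0.71 and -0.90 in shVector, a difference of 0.97. The ratio of Lama1 to Lamb1 signal was -1.68 and -1.73 in shPhf19, against -1.14 and -1.04 in shVector, a difference of -0.61. In these 3 pairs the arrays of the groups did not overlap, and the ratios differed between groups by more than between replicate arrays. An exact permutation test of 2 against 2 arrays cannot go below p = 0.333, which each of the 3 reached (0.4 adjusted over the 6 pairs compared). The other 6 laminin chain genes measured, Lama2 to Lama5, Lamb3 and Lamc3, gave 0 calls in limma and 0 unadjusted p under 0.05, with changes from -0.20 (Lama2) to 0.18 (Lamc3). All but Lama5 lay below the array median on every array. With no detection calls, the values of those genes may be background.

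**Figure D2:**
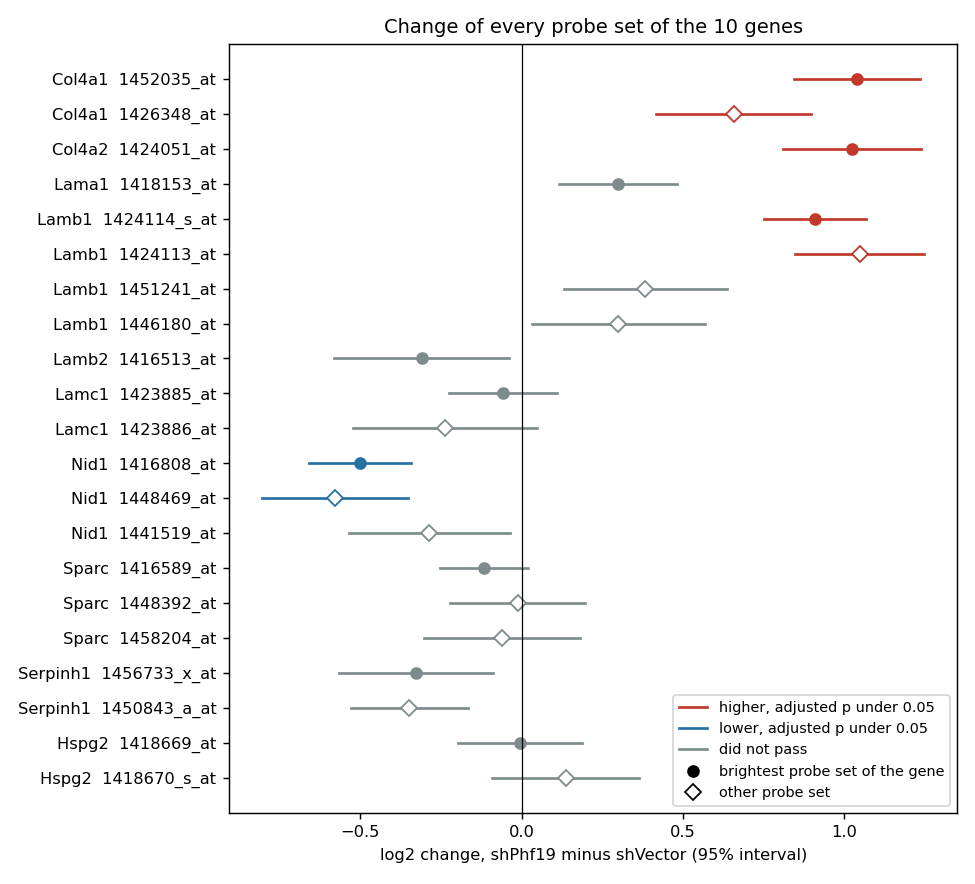
Log2 change, shPhf19 minus shVector (x axis), of all 21 probe sets of the 10 genes with limma's 95% interval. Filled circles are the brightest probe set of each gene, open diamonds the others, and colour marks the call. The 5 probe sets called higher belong to Col4a1, Col4a2 and Lamb1, and the 2 called lower belong to Nid1.

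Nid1 encodes nidogen, the glycoprotein that binds both laminin and collagen IV. Probe set 1416808_at gave 9.84 and 9.93 in shPhf19 cells, against 10.38 and 10.39 in shVector cells. Both shPhf19 arrays were lower, and the change was -0.50 ± 0.07 SE (95% interval -0.66 to -0.34, limma adjusted p = 0.0256). Probe set 1448469_at gave 6.37 and 6.34 in shPhf19, against 6.87 and 7.003 in shVector, a change of -0.58 ± 0.09 SE (adjusted p = 0.0471). Both calls rest on the variance model: without an intensity trend the adjusted p was 0.0714 for 1416808_at and 0.061 for 1448469_at. The dimmest Nid1 probe set, 1441519_at, was at 4.40 and 4.54 in shPhf19, against 4.70 and 4.82 in shVector, and did not pass (change -0.29 ± 0.10 SE, adjusted p = 0.321). Both shPhf19 arrays were below both shVector arrays on all 3, and the probe sets that passed share a source accession.

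The ratio of Col4a1 to Nid1 signal within an array was -0.20 and -0.23 in shPhf19 cells, against -1.68 and -1.83 in shVector cells on the log2 scale. This difference of 1.54 was the largest among the 6 pairs (exact permutation p = 0.333, the smallest possible, and 0.4 adjusted over the 6 pairs). Nid2, the gene of the second nidogen, was at 10.46 and 10.24 in shPhf19, against 10.45 and 10.64 in shVector. Its arrays overlapped and it did not pass (change -0.20 ± 0.10 SE, limma adjusted p = 0.497).

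**Figure D3:**
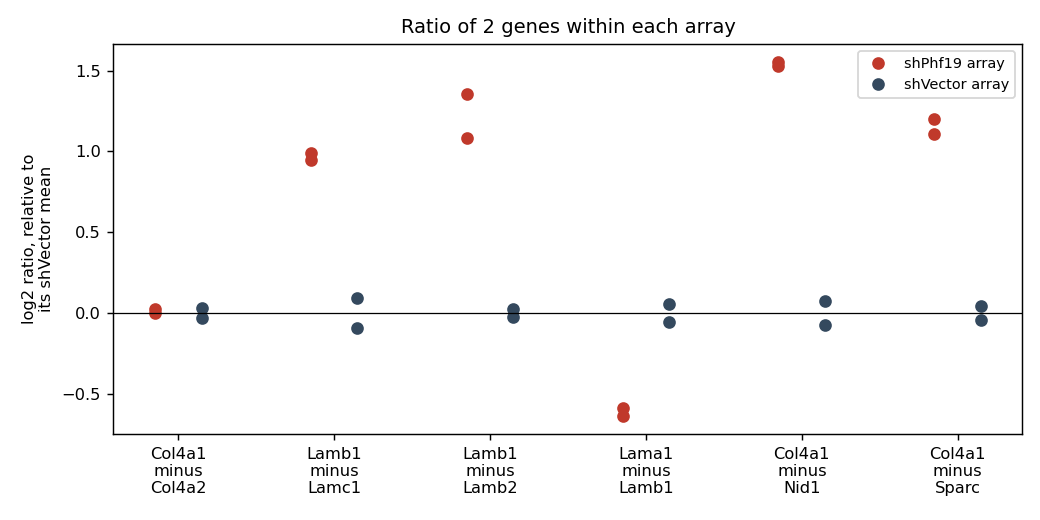
Log2 ratio of the signals of 2 genes within each array, relative to the mean of that ratio in shVector (y axis), for 6 pairs of genes. Each gene is read by its brightest probe set. Red points are shPhf19 arrays and dark points shVector arrays. The ratio of Col4a1 to Col4a2 overlaps between the groups, and the other 5 ratios do not.

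Hspg2 encodes perlecan, the main heparan sulfate proteoglycan of basement membranes. It was at 9.13 and 9.28 in shPhf19 cells, against 9.21 and 9.20 in shVector cells by 1418669_at, and the arrays overlapped. The change was -0.0049 ± 0.08 SE, with an interval from -0.20 to 0.19 (limma adjusted p = 0.995). The second probe set, 1418670_s_at, was at 7.92 and 8.04 in shPhf19, against 7.92 and 7.76 in shVector (0.14 ± 0.10 SE, adjusted p = 0.655).

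Sparc encodes a calcium-binding matricellular protein that binds collagens and is abundant in parietal endoderm. Its brightest probe set, 1416589_at, was at 11.11 and 11.08 in shPhf19 cells, against 11.24 and 11.19 in shVector cells (change -0.12 ± 0.06 SE, limma adjusted p = 0.477). The other probe sets lay closer to 0, with changes of -0.01 ± 0.09 for 1448392_at and -0.06 ± 0.10 for 1458204_at, and their arrays overlapped. The interval of 1416589_at, from -0.25 to 0.02, leaves out a rise of the size seen for Col4a1. The ratio of Col4a1 to Sparc signal within an array was -1.47 and -1.38 in shPhf19, against -2.54 and -2.63 in shVector, a difference of 1.16 with no overlap (exact permutation p = 0.333, 0.4 adjusted over the 6 pairs).

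Serpinh1 encodes the collagen chaperone of the endoplasmic reticulum, also called Hsp47, which collagen IV needs for folding. Probe set 1456733_x_at was at 10.69 and 10.90 in shPhf19 cells, against 11.22 and 11.02 in shVector cells (change -0.33 ± 0.10 SE, limma adjusted p = 0.234). Probe set 1450843_a_at was at 10.35 and 10.48 in shPhf19, against 10.83 and 10.71 in shVector (change -0.35 ± 0.08 SE, adjusted p = 0.109). Neither passed, although both shPhf19 arrays were the lower ones on both probe sets and both intervals lay below 0, from -0.57 to -0.09 and from -0.53 to -0.17. The fitted changes of Col4a1 and Col4a2 were above 0 and that of this chaperone gene was below 0. Names ending in _x_at or _s_at mark probe sets that can also hybridise to related transcripts, which was not analysed here.

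The genes around the members were read from lists of other basement membrane components, of collagen folding, modification and export, and of receptors. Of 28 other basement membrane components measured, 1 rose, against 1.15% of all genes, 0 fell, against 0.863%, and 27 did not pass (median change -0.02). An unadjusted p under 0.05 in limma was found for 6 of the 28, against 15.1% of all genes. The gene that rose was Pxdn, which encodes peroxidasin, the enzyme that forms the sulfilimine bonds between collagen IV trimers. Pxdn was at 8.52 and 8.52 in shPhf19 cells, against 7.98 and 7.97 in shVector cells (change 0.54 ± 0.08 SE, limma adjusted p = 0.0303). Without an intensity trend its adjusted p was 0.05, just over the threshold. Fras1, whose product lies at the epithelial basement membrane, was at 5.12 and 5.23 in shPhf19, against 4.42 and 4.76 in shVector (0.59 ± 0.13 SE, adjusted p = 0.122).

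Of 23 measured genes of collagen folding, modification and export, 0 passed in limma and 3 had an unadjusted p under 0.05, which 15.1% of all genes had (median change -0.02). Crtap, a subunit of the collagen prolyl 3-hydroxylase complex, was at 9.33 and 9.44 in shPhf19 cells, against 9.69 and 9.71 in shVector cells (change -0.31 ± 0.07 SE, limma adjusted p = 0.127). Ctage5, which encodes a collagen export factor of endoplasmic reticulum exit sites, was at 9.74 and 9.70 in shPhf19, against 9.86 and 10.17 in shVector (-0.29 ± 0.11 SE, adjusted p = 0.324). Of 14 receptor genes, 0 passed in limma and 2 had an unadjusted p under 0.05. A change below 0 was found for 10 of the 14 (median -0.13) and for 9279 of all 18193 genes. Sdc2, which encodes the heparan sulfate proteoglycan syndecan-2, was at 6.30 and 6.24 in shPhf19, against 5.80 and 5.67 in shVector. Its change of 0.53 ± 0.10 SE missed the threshold (adjusted p = 0.0643) and passed with quantile normalization (adjusted p = 0.0449). It also passed without the dimmest 25% of probe sets (adjusted p = 0.0467) and without the dimmest 50% (adjusted p = 0.0407). Sdc2 did not pass without an intensity trend (adjusted p = 0.0729) or with robust variance estimates (adjusted p = 0.0599). Nor did it pass with median centring (adjusted p = 0.0517) or with a replicate block (adjusted p = 0.32). The 3 other Sdc2 probe sets gave 0 calls. Sdc1 was at 7.997 and 8.04 in shPhf19, against 7.86 and 7.71 in shVector (0.23 ± 0.09 SE, adjusted p = 0.349).

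**Figure D4:**
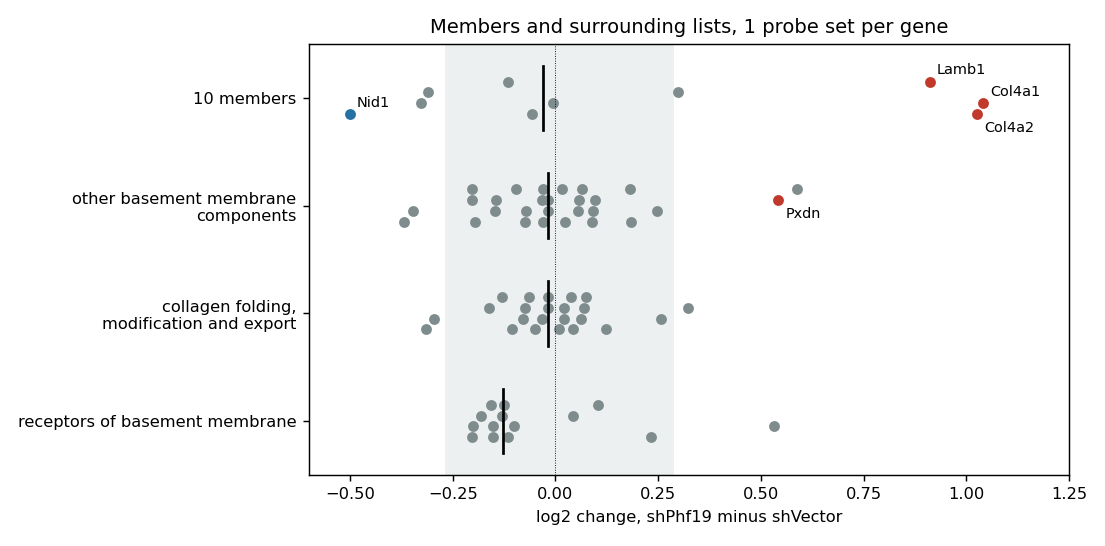
Log2 change, shPhf19 minus shVector (x axis), of the 10 members and of the genes in 3 surrounding lists, each by its brightest probe set. Coloured and named points passed the test, black bars are medians, and the grey band holds the central 90% of all genes, from -0.27 to 0.29. Of the 3 lists, 1 gene, Pxdn, passed.

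Over the 4 arrays, the 5 genes whose log2 profile, centred on its own mean, lay closest to that of Col4a1 were Zfhx3 (Euclidean distance 0.0496), Col4a2 (0.0509), Meis2 (0.1), A930024E05Rik (0.114) and Gas7 (0.138). Lamb1 ranked 8 of 18192 other genes by this distance (0.148) and Lama1 ranked 812 (0.758). Nid1, at rank 17958 (1.54), was the member farthest from Col4a1. With 4 arrays in 2 groups such a profile is mostly the change between the groups and is given as a description.

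Markers of the cell types that make basement membrane were read in the same fit. Of 15 genes listed for parietal endoderm, 3 rose (Dab2, Gata6 and Pdgfra), 1 fell (Krt8) and 11 did not pass. Of all genes 1.15% rose and 0.863% fell. Whether these 15 genes tell parietal from other endoderm was not tested. The mean level of the list was 6.44 to 6.45 in shPhf19 arrays, against 6.23 to 6.32 in shVector arrays on the log2 scale. The list's median change was 0.07, with 8 genes above and 7 below 0. Sox7 was among those below 0 (change -0.24 ± 0.11 SE, limma adjusted p = 0.421). Other probe sets of Dab2, Gata6 and Pdgfra gave 0 calls, and 1 other probe set of Sox17, counted here as not passed, was called. The 2 other probe sets of Krt8 were called lower, with changes of -1.26 (limma adjusted p = 0.00782) and -0.87 (adjusted p = 0.0139). Levels in the list were mixed: Vim was at 13.08 and 13.17 in shPhf19 cells, against 13.00 and 13.10 in shVector cells, whereas Thbd was at 3.96 and 4.19 in shPhf19, against 4.18 and 4.34 in shVector. Of 12 visceral endoderm genes, 1 rose (Cubn), and the list's mean level was 6.08 to 6.09 in shPhf19, against 5.81 to 5.84 in shVector. The median change of these 12 was 0.06, with 7 above and 5 below 0. The other probe set of Cubn was also called higher (change 1.34 ± 0.12 SE, limma adjusted p = 0.0098). In limma 0 of 9 endothelial genes and 0 of 9 fibroblast genes passed, with changes from -0.13 to 0.40 and from -0.68 to 0.46. Of each of these lists 2 genes had an unadjusted p under 0.05, which 15.1% of all genes had. The same held for 7 of the 15 parietal and 3 of the 12 visceral endoderm genes. The 9 embryonal carcinoma genes, among them Pou5f1, Sox2 and Nanog, were bright in every array, with a mean level of 12.5 in both shPhf19 arrays and 12.4 and 12.5 in the shVector arrays. In limma 0 of them passed and 3 had an unadjusted p under 0.05, beside the 15.1% of all genes. Nanog was at 12.80 and 12.76 in shPhf19, against 12.98 and 13.09 in shVector (change -0.26 ± 0.05 SE, limma adjusted p = 0.0923). Of the 9 changes, 6 were above 0 and 3 below. The part of the endoderm markers in the rise of the collagen IV genes was not tested, and in bulk RNA more cells of a type and more RNA per cell cannot be told apart.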

How the data were processed

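Total RNA of 4 F9 cultures, 2 shPhf19 and 2 shVector, was isolated with an RNeasy kit, labelled with biotin and hybridised to Affymetrix mouse arrays, per the labels' protocols. The authors deposited a table of 1 value per array for each probe set; its range, 2.31 to 14.7, was read as that of log2 expression. The array medians of the deposited log2 values nearly coincide, so they were treated as already normalized between arrays; no source used here states that step. Software and background correction: not given in the sources used here. Of 45101 probe sets, 64 Affymetrix controls were left out and 45037 tested without a filter. The annotation gave 34945 of them 1 gene symbol, in 18193 genes, each represented by its brightest probe set (by the mean of all 4 arrays); all 10 members were matched by gene number to RefSeq (GRCm38.p6). In R 4.3.3, limma 3.58.1 (lmFit, then eBayes with trend) tested the log2 change of shPhf19 against shVector, two-sided, with Benjamini-Hochberg adjustment and a threshold of 0.05; SE is limma's moderated standard error. The fit has 2 residual degrees of freedom, and the number of arrays limits the precision. Ratios of members were compared with exact permutation tests (scipy 1.17.1). The fit was tested on simulated data. Promoter windows came from RefSeq.

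The members, lists and tests were chosen with earlier results of these data known. The text names all members, called genes of the 3 surrounding lists or the 2 with the smallest p, and the 5 genes nearest to Col4a1; Nid2, the paralogous chains and the markers are named outside this rule. Listed genes with no probe set of their own were not analysed here. Alternatives changed the variance model, the normalization, the filter on dim probe sets, the replicate block, the arrays and the probe set of a gene. The groups share replicate numbers, which no label ties to a day or batch, so the fit has no replicate term.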

Additional observations from a re-analysis of the deposited data

How the results depend on the processing

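All 7 calls of member probe sets held with robust variance estimates, quantile normalization, median centring and without the dimmest 25% or 50% of probe sets, where 3 dim member probe sets were not tested. Without an intensity trend 229 probe sets were higher and 151 lower over the whole array, 4 member probe sets were called higher and 0 lower, 0 member genes were called lower, and 0 other basement membrane components were called higher. With the mean of all probe sets of a gene, Col4a1, Col4a2 and Lamb1 stayed called higher and Nid1 lower. Among receptor genes, 1 was called higher with quantile normalization, 1 without the dimmest 25% and 1 without the dimmest 50%. Arrays with the same replicate number deviated from their groups with a correlation of -0.197 across probe sets. The replicate block left 0 probe sets called, higher or lower, 0 member probe sets, 0 member genes and 0 other basement membrane components, with 3890 probe sets at an unadjusted p under 0.05; its smallest adjusted p, 0.203, was also that of the members. The crossed block, added after seeing the data, called 596 probe sets. Among member probe sets it called 4 higher and 1 lower, and among member genes 3 higher and 1 lower; the second probe sets of Col4a1 and Nid1 lost their calls (adjusted p = 0.0517 and 0.0607). Leaving out any 1 array gave 0 calls each time (0 to 0), with 7 to 14 member probe sets at an unadjusted p under 0.05 against 14 in all arrays (12.7% of all probe sets). The signs of the called members held in every alternative, but most alternatives could not change them. The variance models, filters and blocks leave the fitted change as it is. For these probe sets the groups of arrays did not overlap, so leaving out 1 array could not turn a sign. Sign changes concerned values near 0 with 1 array left out: Lamc1 1423885_at ran from -0.12 to 0.0041, Sparc 1448392_at from -0.111 to 0.0863, Sparc 1458204_at from -0.144 to 0.023 and Hspg2 1418669_at from -0.0787 to 0.069. The cause of these differences was not tested. Dim probe sets carry no detection call, which limits the smaller changes of Lamb1 and Nid1.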
